A study of Mus musculus with 8 samples.

Results

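The genes described here are the core of the mammalian circadian clock in mouse liver: the activators Arntl (also called Bmal1), Clock and Npas2, the repressors Per1, Per2, Per3, Cry1 and Cry2, the REV-ERB receptor gene Nr1d1 and the output gene Dbp. Array probes were assigned to these 10 symbols through the RefSeq accession of the probe, and each gene was read from the brightest of its probes that were detected well above background in 4 or more of the 8 livers. By that rule 8 of the 10 genes were measured, each with a probe well above background on 8 of 8 arrays, out of 24921 genes or transcripts tested. Npas2 and Cry1 were not measured. The single Npas2 probe was well above background on 1 array, that of vehicle replicate 2, and the single Cry1 probe on 0 of 8 arrays.

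Liver RNA came from 8 female B6C3F1 mice, a hybrid strain, that were 5 to 6 weeks old at purchase and had at least 7 days to settle in. The furan group, replicates 41, 42, 43 and 44, was gavaged with furan dissolved in corn oil at 8 mg per kg body weight. The vehicle group, replicates 2, 3, 4 and 6, was gavaged with corn oil alone, so both groups share the oil and the gavage. Dosing ran over 21 days, and livers were removed 4 hours after the last dose, snap-frozen and hybridised singly to one-colour Agilent arrays, 1 animal per array and 4 per group. Furan is a small volatile compound that forms in heated food and is toxic to rodent liver. The clock time at which each animal was killed, and the block of the randomized block design to which it belonged, are not given in the sources used here.

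The circadian clock is a feedback loop of transcription that runs in nearly all cells of the body, the hepatocyte included. The proteins made from Arntl and Clock (or Npas2) pair on E-box sequences and switch on the Per, Cry, Nr1d1 and Dbp genes. PER and CRY proteins then block the pair, and REV-ERB proteins shut down Arntl through ROR elements, so that in liver the Arntl transcript peaks when those of Nr1d1, Dbp and Per3 are low. Feeding, glucocorticoids and body temperature set the phase of the clock in liver.

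Sequence elements of the kinds through which the loop acts are shown here as background, for the measured genes that held one near their start. Genes were not compared with one another by these elements. Each piece comes from the RefSeq promoter table of build GRCm38.p6, whose windows reach from 250 bases before to 50 bases after a gene's start, 300 bases in all. It is written 5′ to 3′ on the strand of the gene, with the matched element in capitals.
Arntl, chr7:113207529-113207557, plus strand, ROR element beginning at base 29 after the start: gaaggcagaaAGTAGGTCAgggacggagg
Per1, chr11:69098733-69098838, plus strand, E-box beginning at base -166 from the start: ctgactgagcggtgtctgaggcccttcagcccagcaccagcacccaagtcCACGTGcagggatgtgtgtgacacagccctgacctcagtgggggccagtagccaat
Per3, chr4:151044766-151044873, minus strand, a pair of D-boxes beginning at bases -205 and -158 from the start: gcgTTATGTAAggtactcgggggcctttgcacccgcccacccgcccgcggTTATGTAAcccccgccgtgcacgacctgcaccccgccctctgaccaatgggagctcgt
Cry2, chr2:92434180-92434285, minus strand, E-prime box on the opposite strand, at base -166 from the start: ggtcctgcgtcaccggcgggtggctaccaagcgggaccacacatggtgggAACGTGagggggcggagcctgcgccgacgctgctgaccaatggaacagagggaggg
Nr1d1, chr11:98775378-98775455, minus strand, E-prime box on the opposite strand, at base -28 from the start: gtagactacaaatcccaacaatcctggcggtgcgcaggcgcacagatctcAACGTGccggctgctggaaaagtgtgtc

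Both strands of each window were searched for the E-box CACGTG, the E-prime box CACGTT, the D-boxes TTATGTAA and TTACGTAA and the ROR element ANTNGGTCA. Of 32851 promoter windows of the same length, 7.15% held the E-box, 4.68% the E-prime box, 1.06% either D-box and 2.24% the ROR element. The table held windows for 9 of the 10 genes, and Per2 was the gene it did not list. In 1 of the Arntl windows the ROR element matched, and in 1 of the Per1 windows the E-box did. Another window of each of these genes held no match, and the windows of Clock, Dbp and Npas2 held none of these letters. Cry1, which was not measured, held an E-prime box and an E-box in its window. A match describes the letters only, and a window without one says nothing of more distant sites.

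Furan livers were compared with vehicle livers gene by gene, and each animal was checked for activators and repressors displaced in opposite directions. Arntl rose 4.89-fold in furan livers (95% interval 2.50 to 9.56), and Clock was 1.83-fold higher in furan livers without passing the test. None of the other 6 measured genes passed it, and their estimates lay between a log2 change of -0.46 for Per1 and 0.42 for Per2. The mean over Per1, Per2, Per3, Cry2 and Nr1d1 differed by -0.10 on the log2 scale, less than its pooled SD between animals of 0.28. Single genes are less settled, and the 95% interval of Per1 runs from 0.383-fold to 1.39-fold. The vehicle animals differed from one another in both arms of the loop. Of the 8 measured genes, 1 passed at an adjusted p under 0.05, against 4.18% of all features tested, and 2 had groups that did not overlap, against 18.2% of all features. The median log2 change was -0.02 over the 8 genes and -0.09 over all features, and the median size of the change regardless of sign was 0.41 over the 8 genes and 0.24 over all features.

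Levels are given as the log2 signal of a probe relative to its array's 75th percentile, and a change is the furan mean minus the vehicle mean on that scale. Adjusted p-values are from limma with Benjamini-Hochberg adjustment over all 24921 features, two-sided. Between 55.1% and 69.4% of probe spots were well above background on 7 arrays, and 86.2% on the array of vehicle replicate 2, which stands apart from the others. The livers carried hepatocyte transcripts at similar summed levels, 2346 to 2779 in furan livers and 2221 to 3043 in vehicle livers, in units of the 75th percentile of the array, over Alb, Apoa1, Ttr, Cps1 and Hnf4a.

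**Figure D1:**
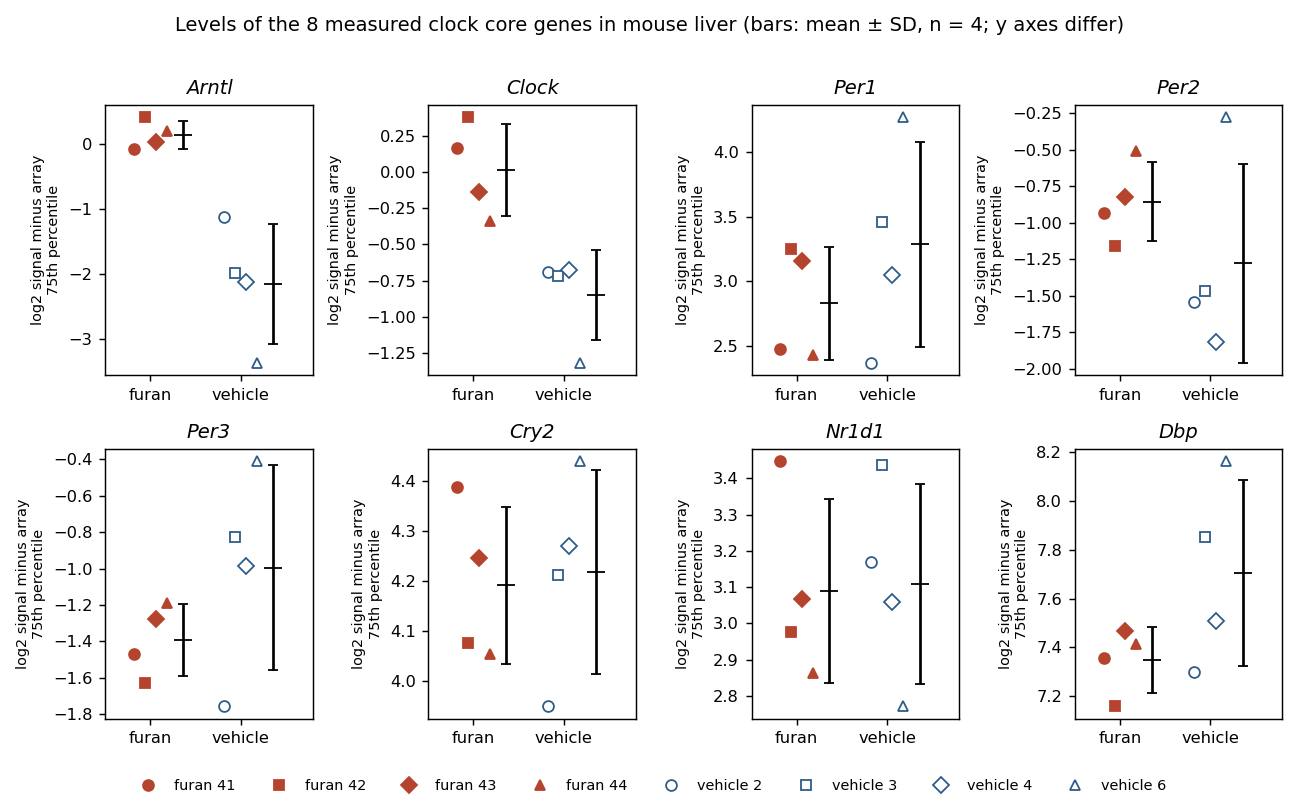
Log2 level relative to the 75th percentile of the array for each measured clock core gene on each array, with furan livers at the left of each panel and vehicle livers at the right. Bars are mean ± SD of 4 animals, and the y axes differ between panels. The furan and vehicle points are separated for Arntl and Clock and overlap for the other 6 genes.

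Among the activators, Arntl encodes the partner without which the loop does not run. Its log2 levels were -0.09, 0.40, 0.02 and 0.20 in furan replicates 41, 42, 43 and 44, and -1.13, -1.99, -2.12 and -3.37 in vehicle replicates 2, 3, 4 and 6. Furan livers lay close together and above each vehicle liver, while the vehicle livers were widely spread. The means were 0.13 ± 0.21 in furan livers and -2.15 ± 0.92 in vehicle livers (SD, n = 4 each), a log2 change of 2.29 ± 0.42 (SE, adjusted p = 0.0291). In bulk tissue a change in transcripts per cell and a change in the number of cells that carry them cannot be told apart. The change was 2.63 without vehicle replicate 2 (adjusted p = 0.0159) and 1.88 without vehicle replicate 6 (adjusted p = 0.0375). The call was lost when any 1 of the other 6 arrays was left out, with adjusted p-values from 0.0636 to 0.0823 and log2 changes from 2.20 to 2.36.

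Each column of the slide held 1 furan and 1 vehicle array. Within columns 1, 2, 3 and 4 the Arntl difference, furan minus vehicle, was 3.77, 2.02, 1.05 and 2.32 on the log2 scale. The direction was the same in 4 of 4 columns, and with the column as a block in the fit the Arntl call was lost (adjusted p = 0.148). With that block 0 of 24921 features passed in limma, and 4723 had an unadjusted p under 0.05. Within slide rows 1 and 2 the difference was 2.36 and 2.22.

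Clock encodes the DNA-binding partner of the ARNTL protein. Its log2 levels were 0.17, 0.38, -0.14 and -0.34 in furan replicates 41, 42, 43 and 44, and -0.69, -0.72, -0.68 and -1.32 in vehicle replicates 2, 3, 4 and 6. The groups did not overlap, and vehicle replicate 6 was the lowest liver for Clock as it was for Arntl. The log2 change of 0.87 ± 0.21 (SE, n = 4 each, 95% interval 0.39 to 1.35) missed the threshold (adjusted p = 0.0578), and it passed in 7 of 19 alternative settings. The difference within columns 1, 2, 3 and 4 was 1.69, 0.59, 0.86 and 0.34.

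Npas2 encodes a stand-in for CLOCK. Its probe read -2.80 on the array of vehicle replicate 2 and -6.72 to -4.94 on the other 7 arrays, on which it was not well above background, so no comparison was made.

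The period genes encode the inhibitors that enter the nucleus with the CRY proteins. Per1, which also responds quickly to glucocorticoids and feeding, was at 2.48, 3.25, 3.16 and 2.43 in furan replicates 41, 42, 43 and 44, and at 2.37, 3.46, 3.05 and 4.27 in vehicle replicates 2, 3, 4 and 6. The furan livers lay inside the range of the vehicle livers, which had the lowest and the highest value of the 8. The log2 change was -0.46 ± 0.40 (SE, 95% interval -1.39 to 0.47, adjusted p = 0.474). These data leave room for a fall to 0.383-fold and for an increase to 1.39-fold.

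Per2 was at -0.93, -1.16, -0.83 and -0.51 in furan replicates 41, 42, 43 and 44, and at -1.55, -1.47, -1.82 and -0.28 in vehicle replicates 2, 3, 4 and 6. Of the vehicle livers, 3 lay below the range of the furan livers and vehicle replicate 6 lay above it. The log2 change was 0.42 ± 0.33 (SE, 95% interval -0.34 to 1.18, adjusted p = 0.426).

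Per3, the period gene that is least needed for the loop, was at -1.47, -1.63, -1.28 and -1.19 in furan replicates 41, 42, 43 and 44, and at -1.76, -0.83, -0.98 and -0.41 in vehicle replicates 2, 3, 4 and 6. Here vehicle replicate 2 was the lowest liver and the other 3 vehicle livers lay above the furan livers. The log2 change was -0.40 ± 0.27 (SE, 95% interval -1.02 to 0.23, adjusted p = 0.371).

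The cryptochrome genes encode potent repressors of the pair. Cry2 was at 4.39, 4.08, 4.25 and 4.05 in furan replicates 41, 42, 43 and 44, and at 3.95, 4.21, 4.27 and 4.44 in vehicle replicates 2, 3, 4 and 6. The groups overlapped, and the log2 change was -0.03 ± 0.13 (SE, 95% interval -0.33 to 0.28, adjusted p = 0.906). The interval runs from 0.795-fold to 1.21-fold. The Cry1 probe read -6.93 to -6.42 in furan livers and -6.80 to -6.08 in vehicle livers, not well above background on any array.

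Nr1d1 encodes REV-ERB alpha, the receptor that shuts down Arntl. It was at 3.45, 2.98, 3.07 and 2.86 in furan replicates 41, 42, 43 and 44, and at 3.17, 3.44, 3.06 and 2.77 in vehicle replicates 2, 3, 4 and 6. The groups overlapped over most of their range, with a log2 change of -0.02 ± 0.18 (SE, 95% interval -0.43 to 0.39, adjusted p = 0.947). Arntl was higher in furan livers by 4.89-fold while the estimate for its repressor gene was 0.986-fold, with an interval from 0.742-fold to 1.31-fold.

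Dbp encodes a PAR bZIP activator that binds D-boxes, and it is a direct output of the ARNTL and CLOCK pair. It was at 7.36, 7.16, 7.47 and 7.41 in furan replicates 41, 42, 43 and 44, and at 7.30, 7.85, 7.51 and 8.16 in vehicle replicates 2, 3, 4 and 6. Of the vehicle livers, 3 lay above all 4 furan livers and vehicle replicate 2 lay within their range. The log2 change was -0.36 ± 0.19 (SE, 95% interval -0.79 to 0.08, adjusted p = 0.284), and the other Dbp probe gave -0.37 ± 0.21 (SE).

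The sign of the small changes varied with the scaling of the arrays. The median log2 signal was 7.03 on the array of vehicle replicate 2 and 5.02 to 5.59 on the other arrays. Shifting each array to its median in place of its 75th percentile moved the median log2 change of all features to 0.39, against -0.09 in the 75th percentile scaling, and with it the values of Per1 (0.03), Per3 (0.09), Cry2 (0.46), Nr1d1 (0.46) and Dbp (0.13) changed sign. Relative to the median of all features, Arntl stood at 2.38 under both scalings, which is so by construction since each adds a constant per array, and at 2.38 after quantile normalization, where the median was 0.05. Its value there was 1.70 after normexp with quantile normalization, where the median of all features was 0.02, and 1.82 in the authors' deposited table, where it was 0.01. Clock stood between 0.77 and 0.96 above the median of all features in these 5 scalings. Relative to that median, the genes that changed sign had the same values under the 75th percentile and median scalings. Per1 stood at -0.365, Per3 at -0.305, Cry2 at 0.065, Nr1d1 at 0.072 and Dbp at -0.264. After quantile normalization Cry2 stood at -0.18 and Nr1d1 at -0.16 relative to it. As plain log2 changes, Per3 was at 0.01 after quantile normalization, and Nr1d1 at 0.03 with array weights, a change of sign in both.

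The per-array check used each gene's deviation from the mean of the 4 vehicle livers, averaged over Arntl and Clock as activators and over Per1, Per2, Per3, Cry2 and Nr1d1 as repressors. The activator mean was 1.54, 1.89, 1.45 and 1.43 in furan replicates 41, 42, 43 and 44, and 0.59, 0.15, 0.10 and -0.84 in vehicle replicates 2, 3, 4 and 6. The repressor mean was -0.09, -0.17, 0.01 and -0.14 in the furan livers in the same order, and -0.43, 0.09, -0.15 and 0.49 in the vehicle livers. Furan livers thus stood above each vehicle liver for the activators and inside the range of the vehicle livers for the repressors.

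**Figure D2:**
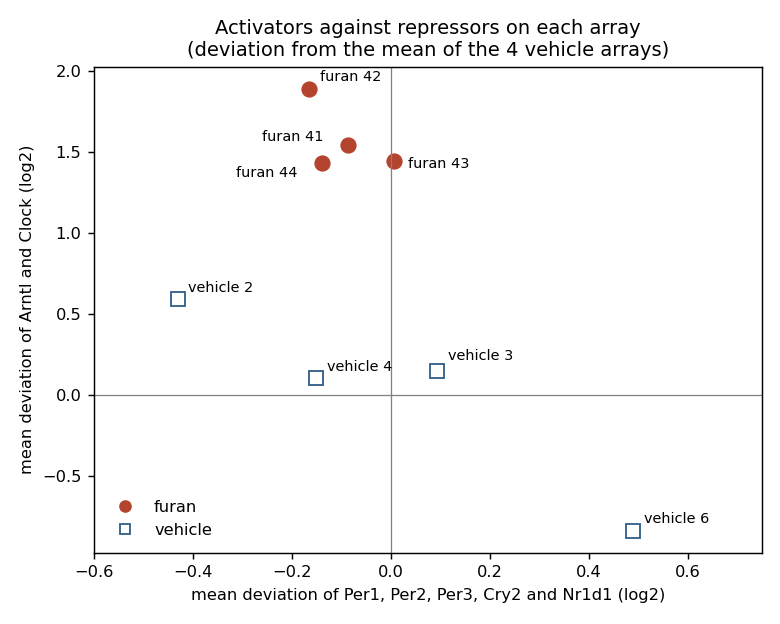
Mean deviation of Arntl and Clock (y axis) against that of Per1, Per2, Per3, Cry2 and Nr1d1 (x axis), in log2 units from the mean of the 4 vehicle livers, 1 point per animal. The furan animals lie together at the top between -0.17 and 0.01 on the x axis, and the vehicle animals run from upper left (vehicle replicate 2) to lower right (vehicle replicate 6).

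Furan minus vehicle, the activator mean differed by 1.58 (pooled SD 0.45) and the repressor mean by -0.10 (pooled SD 0.28). The activator mean minus the repressor mean was 1.63, 2.06, 1.44 and 1.57 in furan replicates 41, 42, 43 and 44, and 1.02, 0.05, 0.26 and -1.33 in vehicle replicates 2, 3, 4 and 6. It differed by 1.68 between the groups, with an SD of 0.27 in furan livers and 0.98 in vehicle livers. As a score over chosen genes it carries no p-value. In the scaling used here, the activator and repressor means had opposite signs in furan replicates 41, 42 and 44. They also did in vehicle replicates 2, 4 and 6. A constant added to an array moves both of its means alike, so these signs depend on the scaling and are not read as a result. Their difference does not depend on such a constant, and it was again 1.68 between the groups under the median scaling. In the scaling used here, the repressor mean was farthest from 0 in vehicle replicates 2 and 6. In those 2 livers Nr1d1, counted here with the repressors, had the sign of the activators, at 0.06 and -0.34. Vehicle replicate 2, the vehicle liver nearest to the furan livers in this measure, is also the array with the largest share of spots well above background. The part of that share in the measure was not tested, and without vehicle replicate 2 the difference between the groups was 2.02.

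**Figure D3:**
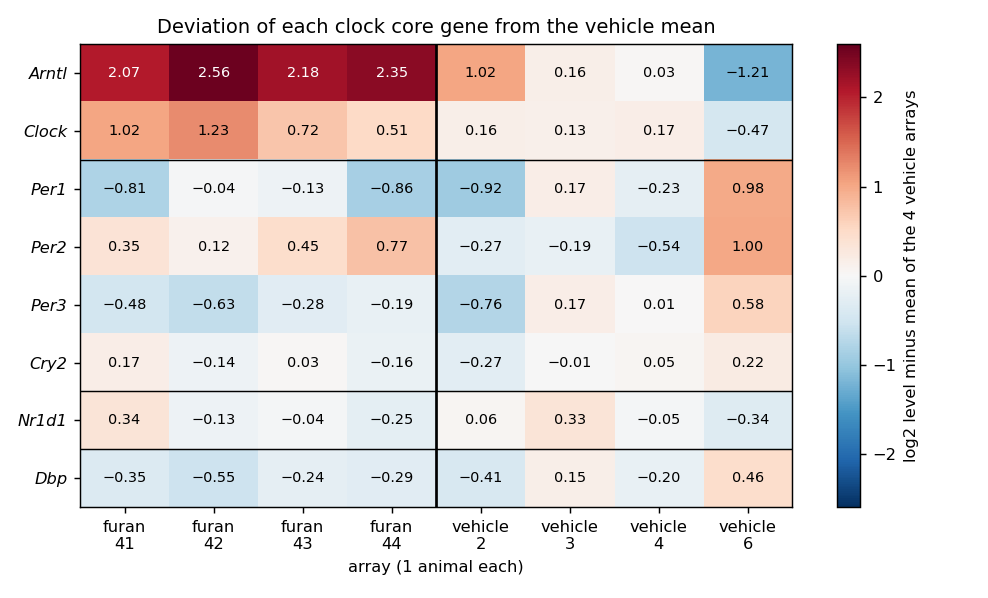
Deviation of each measured clock core gene from the mean of the 4 vehicle livers, in log2 units, with 1 column per array (furan at the left, vehicle at the right) and 1 row per gene, red above and blue below that mean. Arntl runs from 2.07 to 2.56 in the furan columns. In the scaling used here, vehicle replicates 2 and 6 have opposite signs for each gene shown.

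With all 8 arrays, the clock genes varied less among furan livers than among vehicle livers. The SD was smaller in furan livers for 7 of the 8 genes, the exception being Clock, against 68.4% of all features. The median SD of the 8 genes was 0.23 in furan livers and 0.47 in vehicle livers, while over all features it was 0.18 in furan livers and 0.22 in vehicle livers. Without vehicle replicate 2 the count was again 7 of 8, against 43.9% of features, and without vehicle replicate 6 it was 5 of 8, against 68.5%. The median ratio of the furan SD to the vehicle SD was 0.47 over the clock genes and 0.73 over all features. Without vehicle replicate 6 it was 0.85 over the clock genes and 0.69 over all features. The count for the clock genes thus moved with vehicle replicate 6, and the share over all features with vehicle replicate 2. No test of this difference in spread was made.

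The clock genes were also compared with one another within the groups. For each of the 28 pairs of measured genes the values were centred on their group mean, and the correlation over the 8 arrays was tested by exact permutation of arrays within groups, two-sided, with 576 permutations. Of these pairs, 6 had a Pearson p under 0.05, and 1 had an adjusted p under 0.05 after Benjamini-Hochberg adjustment over the 28. Clock and Per2 had a Pearson r of -0.90 and a Spearman rho of -0.95, each with an exact p of 0.00174, the smallest that the permutations allow (adjusted p = 0.0486). Their r was -0.63 without furan replicate 44 and vehicle replicate 6, the 2 arrays farthest from the median of Clock.

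Per3 and Dbp had an r of 0.93 and a rho of 0.86 (exact permutation p = 0.0104 and 0.0174, adjusted p = 0.0729 and 0.107), and r was 0.75 without vehicle replicates 2 and 6. Arntl and Cry2 had an r of -0.87 and a rho of -0.93 (exact permutation p = 0.0104 and 0.0139, adjusted p = 0.0729 and 0.107), and r was -0.82 without the same pair of arrays. Neither passed the adjustment. Arntl and Dbp had an r of -0.89 that fell to -0.32 without vehicle replicates 2 and 6, and Arntl and Per3 an r of -0.89 that fell to -0.16, so both rest on those 2 livers. Arntl and Nr1d1, whose protein acts on ROR elements, had an r of 0.38 (exact permutation p = 0.444, adjusted p = 0.524).

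As a description with no p-value, 15019 features with a symbol were ranked by the correlation of their group-centred values with Arntl over the same 8 arrays. The most alike were Mks1 at 0.98, Cpeb4 and Qrich2 at 0.97, Dnah11 at 0.96 and Cilk1 at 0.95. The most opposite were Nrg4 at -0.99 and Pfdn4, Ccp110, Akr1c19 and Nudcd2 at -0.98. Without vehicle replicate 6 these were 0.87 to 0.93 and -0.96 to -0.94, and all of them share the same arrays and slide. In the same ranking Per3 stood 141st, Dbp 154th and Cry2 225th from the most opposite end, and Clock 1043rd from the most alike end.

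Genes next to the core were taken from 4 lists chosen by role: the accessory loop, the kinases and ubiquitin ligases that modify clock proteins, rhythmic liver outputs, and genes that follow systemic cues. Of 45 genes listed 43 were measured, Arntl2 being too dim and Cyp2a5 having no probe matched by symbol. Of the 43, 0 rose and 1 fell, 2.33% against the 4.18% of all features, and 8 had an unadjusted p under 0.05, where 23.8% of all features did. The groups did not overlap for 5 of them, 11.6% against 18.2% of all features. The median log2 change over the 43 genes was 0.015, against -0.09 over all features.

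**Figure D4:**
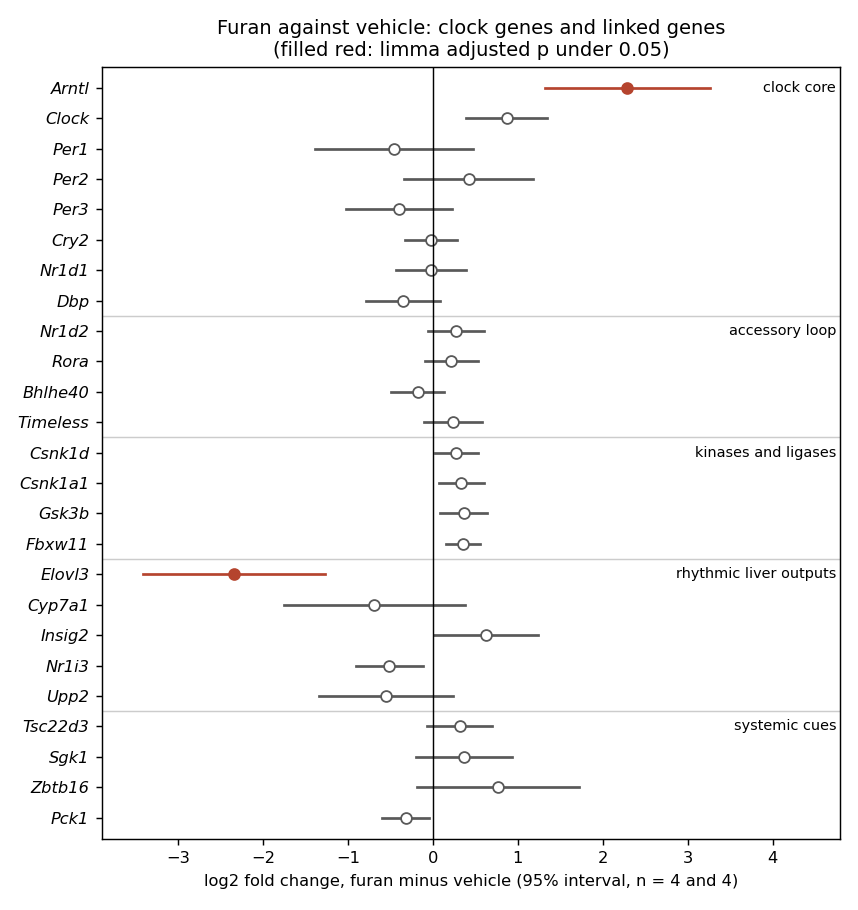
Log2 change, furan minus vehicle, with its 95% interval from limma (4 furan and 4 vehicle animals) for the 8 measured clock core genes and the linked genes named in the text. Filled red points passed at an adjusted p under 0.05, which were Arntl at 2.29 and Elovl3 at -2.35.

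The accessory loop list holds receptors and bZIP factors that act on ROR elements and D-boxes, and other clock-linked genes such as Bhlhe40 and Timeless. Of its 10 measured genes 0 passed, and their median log2 change was 0.015. The 4 with the smallest p were Nr1d2, which encodes REV-ERB beta, at 0.27 (limma adjusted p = 0.284), Timeless at 0.24 (0.336), Rora, an activator on ROR elements, at 0.21 (0.345), and Bhlhe40, which encodes the E-box repressor DEC1, at -0.18 (0.401).

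Kinases and ligases set how long PER and CRY proteins last. Of 10 measured genes 0 passed in either direction, with a median log2 change of 0.16, and the groups did not overlap for 3 of them, against 18.2% of all features. Fbxw11, which encodes the beta-TrCP2 subunit of a ubiquitin ligase for PER proteins, was at 0.35 (limma adjusted p = 0.0623), with levels of 4.07, 4.05, 4.01 and 3.85 in furan replicates 41, 42, 43 and 44, and 3.57, 3.63, 3.73 and 3.64 in vehicle replicates 2, 3, 4 and 6. Each furan liver was above each vehicle liver. The kinase genes Gsk3b, Csnk1a1 and Csnk1d were at 0.36, 0.33 and 0.27 (limma adjusted p = 0.129, 0.135 and 0.184). The mean over the Csnk1d probes gave -0.52, so its probes disagree.

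Among the rhythmic liver outputs, 0 of 15 measured genes rose and 1 fell, with a median log2 change of -0.25. Elovl3 is a fatty acid elongase gene placed on this list, and whether it is rhythmic in these female mice was not measured. Its levels were -3.47, -3.86, -2.88 and -3.39 in furan replicates 41, 42, 43 and 44, and -0.22, -0.31, -1.41 and -2.26 in vehicle replicates 2, 3, 4 and 6. Each furan liver was below each vehicle liver, and vehicle replicate 6 was the vehicle liver nearest to them, whereas for Arntl it was the farthest. The log2 change was -2.35 ± 0.46 (SE, limma adjusted p = 0.0359). That call was lost when any 1 array other than that of vehicle replicate 6 was left out, with log2 changes from -2.52 to -2.07 and adjusted p-values from 0.0531 to 0.101. It was also lost with the slide column as a block (adjusted p = 0.116), the slide row as a block (0.0557), the median scaling (0.0671) and no filter on dim probes (0.0958). The log2 change shrank to -1.19 after normexp with quantile normalization and to -1.30 in the authors' deposited table, where the call held. The furan livers, at -3.86 to -2.88, were near the lowest signal well above background on their arrays, -4.89 to -4.28.

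Of the other outputs, Nr1i3, which encodes the drug-sensing receptor CAR, was at -0.52 (limma adjusted p = 0.125). Upp2, a uridine phosphorylase gene, was at -0.55 (limma adjusted p = 0.335), and Cyp7a1, the rate-limiting enzyme of bile acid synthesis, at -0.69 (limma adjusted p = 0.364). Insig2, a restraint on sterol synthesis, was at 0.63 (limma adjusted p = 0.203), with 5.66, 5.59, 5.39 and 5.63 in furan replicates 41, 42, 43 and 44, and 5.42, 5.23, 4.99 and 4.12 in vehicle replicates 2, 3, 4 and 6. The order of the vehicle livers was that of Arntl, highest in vehicle replicate 2 and lowest in vehicle replicate 6.

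Genes that follow glucocorticoids, feeding or temperature report on the cues that set the liver clock. Of 8 measured 0 passed, with a median log2 change of 0.21. The glucocorticoid-induced genes Tsc22d3, Zbtb16 and Sgk1 were at 0.32, 0.76 and 0.36 (limma adjusted p = 0.277, 0.290 and 0.366). Pck1, the gluconeogenic enzyme gene induced by fasting, was at -0.32 (limma adjusted p = 0.156), with 8.04, 8.14, 8.15 and 7.94 in furan replicates 41, 42, 43 and 44, and 8.15, 8.46, 8.33 and 8.61 in vehicle replicates 2, 3, 4 and 6. Its groups touched at 8.15 to the digits given. Pck1 passed in 4 of 19 alternative settings, at -0.46 to -0.34, and was at 0.16 under the median scaling, where Bhlhe40 was at 0.30, both a change of sign.

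Markers of the cell types a liver piece can hold were read beside these values. Of 5 hepatocyte, 5 Kupffer cell, 5 sinusoidal endothelium, 4 cholangiocyte, 4 stellate cell, 4 lymphocyte and 2 erythroid markers measured, 0 passed the test, against 4.18% of all features. The unadjusted limma p was under 0.05 for 4 of the 29 markers, and for 23.8% of all features. The summed level of the 5 endothelium markers was 65.4 to 80.4 in furan livers and 79.6 to 96.5 in vehicle livers. The groups did not overlap for 3 of the 29 markers, 10.3% against 18.2% of all features. These were Stab2 (log2 change -0.48, limma adjusted p = 0.0687) and Pecam1 (-0.39, limma adjusted p = 0.0550) of the endothelium and Hnf4a of the hepatocyte (0.31, limma adjusted p = 0.0859). The other endothelium markers Clec4g, Kdr and Lyve1 were at -0.18, -0.12 and 0.001. The other hepatocyte markers Apoa1, Ttr, Alb and Cps1 were at -0.20, -0.03, -0.02 and 0.03, so Hnf4a does not stand for its list. The part of cell makeup in the Arntl change was not tested.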

How the data were processed

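The 8 deposited one-colour scanner files give spot intensity values, background-subtracted and detrended into a processed intensity by Agilent Feature Extraction 11.0.1.1 per the file headers. The authors also deposited a table of log2 values, with column medians of 6.53 to 6.74, and the sources used here do not give how they were made.

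Each array had 62976 spots, of which 3671 controls were left out, as were 128 to 315 spots marked as outliers. The log2 processed intensity was scaled to the 75th percentile of the array, which assumes a like distribution of signals on each array. Spots of a probe were averaged, and 33848 of 55681 probes were well above background on at least 4 of 8 arrays. RefSeq accessions gave a symbol to 27235 of 28685 probes that had one, through a table for assembly GRCm38.p6. The array's own probe annotation is against another build, so no probe positions are given.

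The furan and vehicle groups were compared in limma 3.58.1 (lmFit, eBayes; R 4.3.3) with 1 group term. Each group holds 4 animals that the design text calls biological replicates, and the number of arrays limits the precision. Intervals are at 95%. Groups with no shared range were counted over the 24810 features without a missing value. The limma fit was tested on simulated data. Other steps used Python 3.11.15 with numpy 2.4.6, pandas 2.3.3, scipy 1.17.1 and matplotlib 3.10.9.

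The clock genes, the lists and the tests were chosen with earlier results of these data known. Named genes were the 10 clock genes, linked genes past the threshold, up to 4 others per list with the smallest p, and the 5 features most alike and most opposite to Arntl. A few genes were dropped from the lists, are not reported here and enter no list count. Stab2, Pecam1 and Hnf4a among the markers were named after their values were seen. Alternatives were other scalings, filters, probe rules, variance models, slide blocks, a stricter threshold, other makeups of the activator and repressor means, and each array left out.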

Additional observations from a re-analysis of the deposited data

Results flagged for a closer look

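In 26 sets of measured values, 52 groups of 4 livers were examined for an outlying liver. Its gap to the nearest other, as a share of the group's range, had to be past Dixon's 95% critical value. This was so in 4 groups, where chance gives about 1 group in 20. Clock in vehicle replicate 6 was at -1.32, below the other vehicle livers at -0.72 to -0.68. The other 3 were low values of vehicle replicate 2, the array with the largest share of spots well above background. They were Rora at 2.16 against 2.62 to 2.66, Csnk1d at 5.18 against 5.44 to 5.47, and Sgk1 at 1.12 against 2.05 to 2.16 in the other vehicle livers. No cause was tested.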

How the results depend on the processing

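The log2 change of Arntl kept its direction in 19 of 19 alternatives, at 1.73 to 2.77, and passed in 11 of them. It was not past the threshold with no filter on dim probes (adjusted p = 0.0801), where 37074 features were tested, with the slide column as a block (0.148), or in 6 of the 8 fits that left out an array. Clock kept its direction in 19 of 19, at 0.71 to 1.35, and passed in 7.

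Of the measured clock core genes, where 1 passed, 2 passed with quantile normalization, normexp with quantile normalization, the authors' value table, the filter on all 8 arrays, trend and robust eBayes, array weights or the slide row as a block, and 0 with no filter, the slide column as a block, or an adjusted p under 0.01. Leaving out an array gave 0 to 1. Of the linked genes, where 1 passed, 4 passed with array weights, 3 with normexp or the authors' table, 2 with quantile normalization, the filter on all 8 arrays, averaging the probes of a gene or trend and robust eBayes, and 0 with the median shift, no filter, either slide block or an adjusted p under 0.01. Leaving out an array gave 0 to 1.

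Over all features, where 1041 passed, 86 did with the median shift, 163 with no filter, 1671 in the authors' table, 1733 with the filter on all 8 arrays, 2001 with trend and robust eBayes, 2043 with array weights, 101 at an adjusted p under 0.01 and 0 with the slide column as a block (4723 at an unadjusted p under 0.05). Leaving out an array gave 195 to 927, with 927 for vehicle replicate 2 and 195 for furan replicates 41 and 43. The cause was not tested.

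The difference between the activator and repressor means, 1.68, was 0.88 with no filter, since the dim Npas2 and Cry1 probes then enter, and 1.23 without vehicle replicate 6. Changes that turned sign were those of Per1 (0.028), Per3 (0.088), Cry2 (0.46), Nr1d1 (0.46), Dbp (0.13), Bhlhe40 (0.30) and Pck1 (0.16) with the median shift, Per3 with quantile normalization (0.0075), Nr1d1 with array weights (0.034) and Csnk1d as the mean of its probes (-0.52). Leaving out an array gave -0.12 to 0.047 for Cry2 and -0.14 to 0.089 for Nr1d1. None of these passed the test.

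Replicate numbers are not shared between furan and vehicle animals and the blocks of the design are not given, so the slide column, with 1 furan and 1 vehicle array in each, was the only pairing fitted. Signal over background limits Npas2 and Cry1, which could not be compared.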
